A study of Homo sapiens with 9 samples.

Results

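The genes described here are 10 transcripts that cells are known to raise when oxygen falls, namely HILPDA, ADM, ANKRD37, ANGPTL4, VEGFA, CA9, BNIP3, BNIP3L, NDRG1 and DDIT4. They were taken by symbol from a table of 34789 Ensembl genes, and all 10 were found. They were chosen by their FPKM values in these same samples, in which several stood higher after FOXN3 was lowered, together with what is known of HIF targets. Their values against the control siRNA are therefore given as description, without a test.

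RNA was sequenced from H1299, a human non-small cell lung cancer line described by its labels as epithelial-like. Cells received 50 nM of a control siRNA (siControl) or of either of 2 siRNAs against the forkhead repressor gene FOXN3 (siFOXN3-1 and siFOXN3-2), with Lipofectamine RNAiMAX as the carrier in every group. Each of the 3 groups held 3 samples, all of this 1 line, and the labels name no low-oxygen treatment. The labels do not state separate cultures for the replicates, and the p-values cover only sample-to-sample spread, part or all of which may be technical. In the treatment labels, siFOXN3-2 replicates 2 and 3 carry siFOXN4 and siFOXN5 as the reagent, whereas their titles continue siFOXN3-2. They were kept with siFOXN3-2. Where a named gene lost its call against siControl with siFOXN3-2 replicate 1 alone, that is said beside it.

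Hypoxia-inducible factors (HIF) are dimers of an oxygen-labile alpha subunit and the stable partner ARNT. With oxygen present, prolyl hydroxylases of the EGLN family mark the alpha subunit, and the VHL ubiquitin ligase removes it. When oxygen falls the subunit persists, and the dimer binds short promoter and enhancer sequences, the hypoxia response elements, whose core reads ACGTG or GCGTG. Its known targets shift cells toward glycolysis, new vessels, lipid storage, acid export and removal of mitochondria. Several of these targets are also known to respond to other stresses and to growth factor signals.

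The 10 genes fall into roles. ADM encodes the vasodilator peptide adrenomedullin, VEGFA the main vessel growth factor, and ANGPTL4 a secreted inhibitor of lipoprotein lipase. HILPDA is a lipid droplet protein that inhibits the triglyceride lipase encoded by PNPLA2. BNIP3 and BNIP3L are paralogous mitochondrial outer membrane receptors for mitophagy. DDIT4 (also REDD1) restrains mTOR complex signalling, CA9 is a cell surface carbonic anhydrase that acidifies the cell's surroundings, NDRG1 is a stress-responsive cytoplasmic protein, and ANKRD37 is an ankyrin repeat protein.

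RefSeq promoters (GRCh38.p14, from 250 bases before to 50 after the annotated start) were given for 6 of the 10 genes, ADM, ANKRD37, ANGPTL4, CA9, BNIP3 and DDIT4. They are shown because the response element is the sequence that these genes have in common by reputation. Capitals mark each ACGTG or GCGTG on either strand, so CACGT and CACGC are the same letters read on the other strand, and matches on both strands can overlap. The first pair gives the whole promoters of the gene with the greatest ratio to siControl under siFOXN3-1 and of the gene with the smallest, and the rest are stretches around a match.
ANKRD37, chr4:185396591-185396890, plus strand: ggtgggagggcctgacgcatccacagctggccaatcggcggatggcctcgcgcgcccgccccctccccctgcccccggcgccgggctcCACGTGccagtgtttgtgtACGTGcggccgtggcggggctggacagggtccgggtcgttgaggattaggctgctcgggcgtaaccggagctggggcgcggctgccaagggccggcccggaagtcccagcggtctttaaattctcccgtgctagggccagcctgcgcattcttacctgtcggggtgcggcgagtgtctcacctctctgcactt
CA9, chr9:35673678-35673977, plus strand: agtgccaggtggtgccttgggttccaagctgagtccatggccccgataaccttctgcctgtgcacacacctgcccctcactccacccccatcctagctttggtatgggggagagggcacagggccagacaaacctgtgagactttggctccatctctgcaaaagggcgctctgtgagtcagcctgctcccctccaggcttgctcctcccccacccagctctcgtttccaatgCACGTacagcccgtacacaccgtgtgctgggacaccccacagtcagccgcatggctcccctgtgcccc
ADM, chr11:10304944-10305003, plus strand: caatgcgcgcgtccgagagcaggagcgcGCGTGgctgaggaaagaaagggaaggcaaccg
ANGPTL4, chr19:8363905-8363952, plus strand: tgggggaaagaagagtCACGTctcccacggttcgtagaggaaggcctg
BNIP3, chr10:131982023-131982085, minus strand: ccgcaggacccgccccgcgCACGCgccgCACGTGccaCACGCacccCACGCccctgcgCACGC
DDIT4, chr10:72273771-72273830, plus strand: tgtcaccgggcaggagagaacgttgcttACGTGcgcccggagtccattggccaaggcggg

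All 6 promoters held at least 1 core, against 48.4% of 34943 human RefSeq promoters of this length and 65.1% of the promoters of 9210 genes tested here. BNIP3 held 6 matches, of which 1 ACGTG on each strand share letters, in a promoter of 80.7% G and C. DDIT4 held 4, beginning at positions -219, -125, -53 and 26 from the start site, and ANKRD37 held 3, at -162, -161 and -143. ADM held a single GCGTG at -101, ANGPTL4 a single ACGTG at -234 and CA9 a single ACGTG at -18. With ACGTG alone, 5 of the 6 had a match, against 21.4% of all promoters and 27.7% of those of tested genes. Of 32 promoters of the other HIF targets listed further on, 81.3% held either core and 56.3% held ACGTG. G and C made up 62.0 to 80.7% of these promoters and a median of 66.0% in tested genes, and both cores contain CG. CA9 and ANKRD37 thus both carry the core. With siFOXN3-1, ANKRD37 had the greatest mean ratio to siControl and CA9 the smallest, where single samples of CA9 overlapped those of VEGFA. Whether the core has a part in these ratios was not tested.

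FOXN3, the targeted gene, was low in every siRNA sample. It stood at 4.85, 5.25 and 5.00 FPKM (fragments per kilobase of exon, scaled to library size, as deposited) in siControl. The values were 1.28, 1.24 and 1.16 FPKM under siFOXN3-1 and 0.858, 0.958 and 1.06 FPKM under siFOXN3-2, so siFOXN3-2 replicates 2 and 3 were above its replicate 1 and below every siFOXN3-1 sample. Across libraries, whole-read steps in the low values gave about 17010000 to 19580000 fragments per sample. The line's markers were mixed. KRT8 and KRT18 reached 84.7 to 239 FPKM, VIM 443 to 572 FPKM and CDH2 13.8 to 17.3 FPKM, while EPCAM and CDH1 stayed at or under 0.280 FPKM. The 3 endothelial markers summed to 0.215 to 0.379 FPKM over all samples, and the 3 immune markers to 0.0239 to 0.2998 FPKM. Mitochondrially encoded genes held 13.2 to 14.2% of the summed FPKM in siControl and 7.27 to 9.07% with the siRNAs, and since FPKM is a share of each library, their part in the differences below was not tested. In such bulk samples, more cells expressing a gene and more RNA per cell cannot be told apart.

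The secreted vessel and lipid factors differed from siControl by unequal amounts. ADM (chr11:10304680-10307397, plus strand; gene positions are GRCh38, GENCODE 29) had 8.31, 9.10 and 10.4 FPKM in siControl, 98.7, 102 and 107 FPKM under siFOXN3-1, and 108, 108 and 105 FPKM under siFOXN3-2. Every siRNA sample of ADM was above every control, and the siRNA groups overlapped each other. The means stood 11.1-fold and 11.5-fold above siControl, and the log2 fold change on the log2(FPKM + 1) scale was 3.34 (SE 0.0717) with siFOXN3-1 and 3.40 (SE 0.0717) with siFOXN3-2. ANGPTL4 (chr19:8363289-8374373, plus strand) began much higher, at 78.9, 85.9 and 83.8 FPKM in siControl. It reached 406, 432 and 451 FPKM under siFOXN3-1 and 292, 296 and 257 FPKM under siFOXN3-2. The 3 groups of ANGPTL4 did not overlap, with siFOXN3-2 between the others, at 5.19-fold and 3.40-fold the siControl mean.

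VEGFA (chr6:43770184-43786487, plus strand) differed least among the 8 genes above the expression filter. Its values were 10.6, 11.3 and 11.9 FPKM in siControl, 15.7, 14.9 and 13.7 FPKM under siFOXN3-1, and 14.6, 12.3 and 13.4 FPKM under siFOXN3-2. All 6 siRNA samples lay above the controls, by 1.31-fold and 1.19-fold in the means, and the siRNA groups overlapped. The log2 fold changes were 0.36 and 0.24 (SE 0.0743 for both), and the lowest value in any alternative processing was 0.18. VEGFA ranked 1670 and 2918 from the top of 12707 tested genes by log2 fold change, where ADM ranked 6 and 3.

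HILPDA (chr7:128455849-128458418, plus strand), the lipid droplet protein, rested on 392 to 443 fragments per siControl sample and 5033 to 6023 per siRNA sample. Its level was 10.99, 9.86 and 10.9 FPKM in siControl, 152, 157 and 163 FPKM under siFOXN3-1, and 148, 158 and 135 FPKM under siFOXN3-2. No siRNA sample came near a control, and the means were 14.8-fold and 13.8-fold the siControl mean. By log2 fold change (3.77 and 3.67) HILPDA ranked 2 with siFOXN3-1 and 1 with siFOXN3-2. Over 13.2% of its exon length HILPDA shares sequence with annotated genes on the same strand. One of them, AC010655.2, was listed at no more than 0.0808 FPKM in any sample.

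The mitophagy receptors moved together and by a similar amount. BNIP3 (chr10:131966455-131982013, minus strand) had 46.5, 43.1 and 44.1 FPKM in siControl, 86.0, 86.4 and 86.1 FPKM under siFOXN3-1, and 82.6, 90.0 and 83.1 FPKM under siFOXN3-2. BNIP3L had 39.3, 39.7 and 41.8 FPKM in siControl, 83.2, 76.9 and 75.2 FPKM under siFOXN3-1, and 67.7, 76.8 and 76.0 FPKM under siFOXN3-2. For both paralogs each siRNA sample was above each control, at 1.93-fold and 1.91-fold for BNIP3 and 1.95-fold and 1.82-fold for BNIP3L. In each group BNIP3 stood above BNIP3L without overlap of the samples, so the order of the paralogs was the same in every group.

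DDIT4 (chr10:72273920-72276036, plus strand) had the highest FPKM of the 10 in siControl, at 103, 109 and 107 FPKM. It reached 395, 419 and 446 FPKM under siFOXN3-1 and 288, 287 and 254 FPKM under siFOXN3-2, and the 3 groups did not overlap. The means were 3.95-fold and 2.60-fold the siControl mean. Exons of DDIT4 overlap the antisense gene DDIT4-AS1 over 41.2% of their length, and the library kit does not mark strand, so reads of the pair cannot be told apart there.

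ANKRD37 (chr4:185396021-185400628, plus strand) was scarce in siControl, at 1.24, 1.33 and 1.68 FPKM, which rested on 60 to 85 fragments. It stood at 21.5, 21.7 and 23.2 FPKM under siFOXN3-1 and 21.2, 19.5 and 17.0 FPKM under siFOXN3-2, or 15.6-fold and 13.6-fold the siControl mean. The pseudocount of 1 FPKM damps the fold of so low a gene. Its log2 fold change was 3.26 and 3.06, and limma-voom on fragments recovered from the FPKM steps gave 3.96 and 3.75. UFSP2 overlaps 35.2% of the ANKRD37 exon length on the other strand and stood at 4.31, 5.32 and 6.07 FPKM in the group means. It was called higher with both siRNAs (limma adjusted p = 0.0299 and 0.0024). The library kit does not mark strand, so reads of ANKRD37 and UFSP2 cannot be told apart where they overlap.

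NDRG1 and CA9, both widely used as hypoxia markers, lay below the filter of a mean of 1 FPKM over the 9 samples. NDRG1 was listed at 0.0599, 0.0742 and 0.078 FPKM in siControl, from 11 to 15 fragments. It was at 0.357, 0.441 and 0.395 FPKM under siFOXN3-1 and 0.317, 0.320 and 0.304 FPKM under siFOXN3-2, from 53 to 79 fragments. Its siRNA samples were all above its controls, at 5.62-fold and 4.44-fold, yet remained under 1 FPKM. CA9 (chr9:35673856-35681159, plus strand) had 0.449, 0.686 and 0.581 FPKM in siControl, 0.595, 0.887 and 0.684 FPKM under siFOXN3-1, and 0.845, 0.487 and 0.464 FPKM under siFOXN3-2. It was the only one of the 10 whose siRNA and control samples overlapped with both siRNAs, at 14 to 27 fragments per sample. ARHGEF39 covers 38.5% of the CA9 exon length on the opposite strand and fell from 4.54 ± 0.0429 FPKM in siControl to 2.31 ± 0.0464 FPKM under siFOXN3-1 and 3.11 ± 0.174 FPKM under siFOXN3-2 (SD, n = 3; limma adjusted p = 2.7e-06 and 1.1e-04), so reads counted for CA9 may hold some of it.

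**Figure D1:**
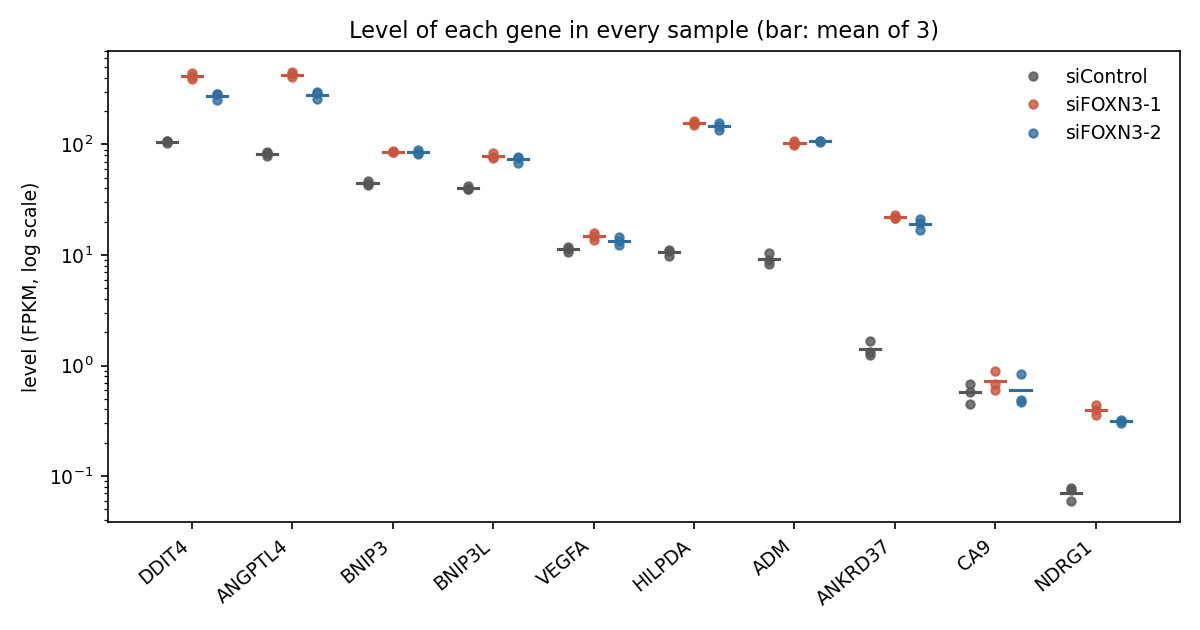
Level of each of the 10 genes in every sample, in FPKM on a log axis, ordered by the siControl mean, with points for samples and bars for the mean of 3. The siRNA points stand clear of the siControl points except for CA9, and HILPDA and ADM pass BNIP3 and BNIP3L only in the siRNA groups.

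Thus 9 of the 10 genes had all 3 samples of each siRNA above all 3 controls, 8 of them above the filter. Among all 12707 tested genes that was so for 22.0% with siFOXN3-1 and 26.2% with siFOXN3-2, while 49.1% and 42.0% had all siRNA samples below the controls. Since the choice of the genes used these contrasts, nothing is read from this count. The median log2 fold change of the 8 was 2.17 with siFOXN3-1 and 1.56 with siFOXN3-2, beside -0.17 and -0.10 over all tested genes. Median-ratio scaling of the samples brought the latter to 0.00 for both and left the 8 genes higher with both siRNAs. The 10 genes together made up 0.109 to 0.115% of the summed FPKM in siControl samples, 0.476 to 0.504% with siFOXN3-1 and 0.356 to 0.385% with siFOXN3-2.

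The order of the levels changed between groups. In siControl it ran DDIT4, ANGPTL4, BNIP3, BNIP3L, VEGFA, HILPDA, ADM, ANKRD37, CA9 and NDRG1, where VEGFA and HILPDA overlapped, as did HILPDA and ADM. With either siRNA, ANGPTL4 and DDIT4 led and overlapped each other. HILPDA and ADM followed without overlap, then BNIP3, BNIP3L and ANKRD37, and VEGFA stood below ANKRD37. This order is that of FPKM, which divides fragments by exon length. That length was 14431 bases for VEGFA, against 2070 for HILPDA, 2718 for ADM and 2580 for ANKRD37. In siControl VEGFA had 2848 to 3351 fragments per sample, HILPDA 392 to 443 and ADM 422 to 553. Under siFOXN3-1 VEGFA had 3463 to 4317 and ANKRD37 1022 to 1062. The place of VEGFA thus depends on the annotated length. CA9 and NDRG1 stayed last in all 3 groups.

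By ratio to the siControl mean, the 10 genes formed steps. With siFOXN3-1, single samples of ANKRD37 (15.2 to 16.3-fold) and HILPDA (14.3 to 15.4-fold) overlapped, and those of ADM (10.7 to 11.6-fold) stood apart below them. NDRG1 (5.05 to 6.24-fold) overlapped ANGPTL4 (4.90 to 5.44-fold), with DDIT4 (3.72 to 4.201-fold) beneath. BNIP3L (1.87 to 2.07-fold) and BNIP3 (1.93 to 1.94-fold) overlapped, and VEGFA and CA9 overlapped at the bottom. With siFOXN3-2 the steps came in the same sequence of groups, but NDRG1 (4.30 to 4.53-fold) no longer overlapped ANGPTL4 (3.10 to 3.57-fold).

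**Figure D2:**
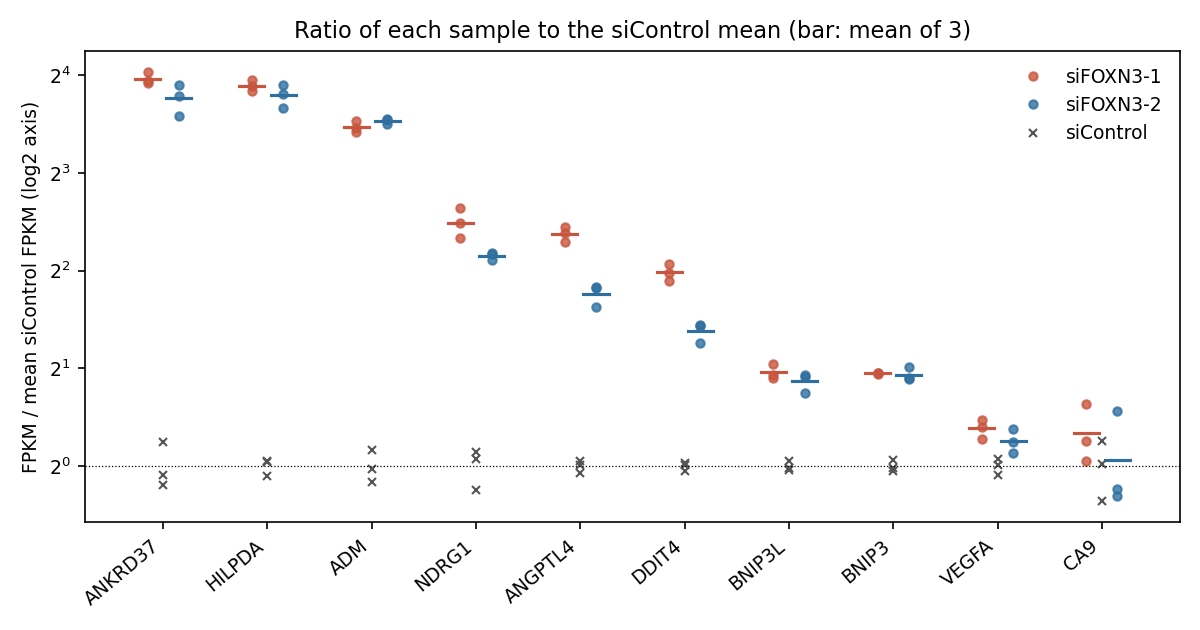
Ratio of each sample's FPKM to the siControl mean of that gene, on a log2 axis, for siFOXN3-1 and siFOXN3-2 (points, with bars for the mean of 3) and for the siControl samples themselves (crosses). ANKRD37, HILPDA and ADM stand highest, and the siFOXN3-2 points lie below those of siFOXN3-1 for ANKRD37, NDRG1, ANGPTL4 and DDIT4.

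The siRNAs were next compared with each other. The choice of the genes did not name this contrast but used FPKM values of these same samples, so its p-values may not be independent of that choice. ANGPTL4 and DDIT4 were lower with siFOXN3-2 than with siFOXN3-1, and by almost the same amount. The difference of ANGPTL4 was -0.61 on the log2 scale (95% interval -0.76 to -0.45, limma adjusted p = 2.1e-04 over all tested genes), with 282 ± 21.4 against 430 ± 22.6 FPKM (SD, n = 3). That of DDIT4 was -0.60 (95% interval -0.75 to -0.45, limma adjusted p = 2.0e-04), with 277 ± 19.6 against 420 ± 25.8 FPKM. With siFOXN3-2 replicate 1 alone, the differences were -0.55 (limma adjusted p = 0.0051) and -0.54 (limma adjusted p = 0.0057). Each of the 3 siFOXN3-2 samples lay below each siFOXN3-1 sample for both genes.

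The other 6 tested genes did not pass in that contrast. The differences were 0.06 (95% interval -0.10 to 0.22) for ADM, -0.02 (-0.13 to 0.10) for BNIP3, -0.09 (-0.24 to 0.05) for BNIP3L and -0.10 (-0.25 to 0.05) for HILPDA. VEGFA had -0.13 (-0.29 to 0.04) and ANKRD37 -0.20 (-0.40 to 0.00), and with median-ratio scaling both passed, at -0.21 (limma adjusted p = 0.0399) and -0.29 (limma adjusted p = 0.0328). The count of 2 lower among 8 compares with 10.7% of all tested genes called lower with siFOXN3-2 than with siFOXN3-1, 25.4% called higher and 36.1% called in either direction. ANKRD37 and NDRG1 also had their siFOXN3-2 samples wholly under those of siFOXN3-1, as 14.2% of tested genes did, while 31.8% lay wholly above. CA9 differed by -0.11 (limma adjusted p = 0.695) in a fit without the expression filter. For NDRG1, in that fit, the difference was -0.09 (limma adjusted p = 0.2995), on a scale where 1 FPKM is added to values under 0.5 FPKM. FOXN3 itself differed by -0.18 (limma adjusted p = 0.0659) between the siRNAs.

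**Figure D3:**
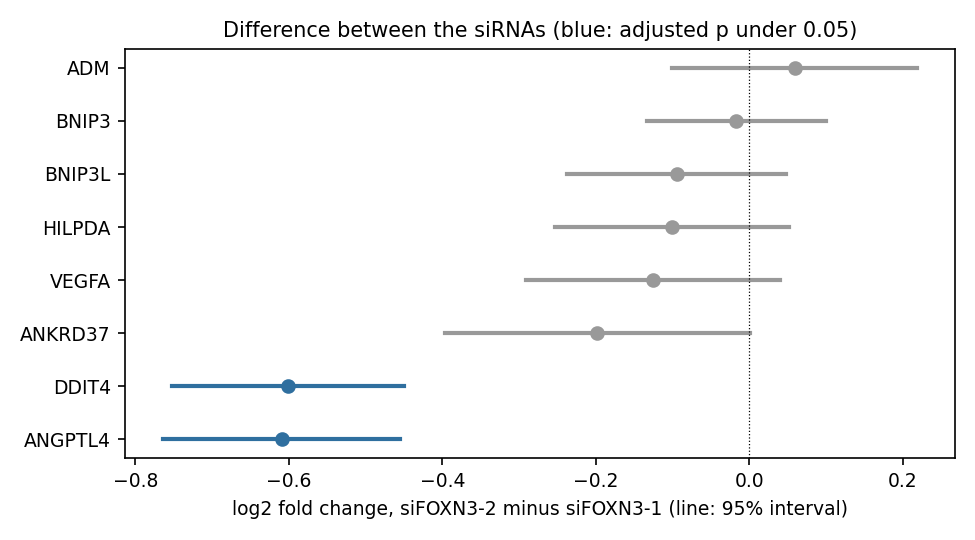
Log2 difference between siFOXN3-2 and siFOXN3-1 for the 8 genes above the expression filter, with the 95% interval of the limma fit as a line (3 samples per group). The intervals of DDIT4 and ANGPTL4 lie wholly below 0, and the other 6 reach 0.

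Over the 9 samples, each of the 8 genes followed the mean log2 profile of the other 7, with r from 0.970 (DDIT4) to 0.998 (ANKRD37) and 0.854 for VEGFA. The samples fall into control and siRNA groups that set most of this r, so it is given as a description. Among tested genes outside the listed ones, the 5 profiles most like the mean of the 8 were those of CCN1 (r = 0.9992), PIM1, FOSB, MAFF and ZFP36 (r = 0.9988). CCN1 encodes a matricellular protein, PIM1 a kinase, FOSB and MAFF transcription factors and ZFP36 an mRNA decay factor. PIM1 went from 12.8 ± 0.607 FPKM in siControl to 78.4 ± 3.51 with siFOXN3-1 and 66.2 ± 1.55 with siFOXN3-2, and MAFF from 2.26 ± 0.167 to 18.1 ± 0.955 and 15.2 ± 1.62 FPKM (SD, n = 3).

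Other known HIF targets outside glycolysis were then taken from a list of 38 genes, of which 33 were above the filter. With siFOXN3-1, 25 rose, 4 fell and 4 did not pass, and with siFOXN3-2, 26 rose, 3 fell and 4 did not pass. Over all tested genes, 19.3% rose and 45.3% fell with siFOXN3-1 (64.7% in either direction), and 24.1% rose and 39.2% fell with siFOXN3-2 (63.3%). Of the 33, 25 rose and 2 fell with both siRNAs, beside 15.3% and 33.4% of all tested genes. The list's median log2 fold change was 0.58 with siFOXN3-1 and 0.54 with siFOXN3-2, against -0.17 and -0.10 over all tested genes. Between 25 and 27 of the list's tested genes rose in each of 18 alternatives with each siRNA. This list and those that follow were drawn up with earlier results of these samples known, so their directions are no independent evidence.

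CXCR4, a chemokine receptor, rose from 1.01 ± 0.153 FPKM in siControl to 12.9 ± 0.316 with siFOXN3-1 and 11.9 ± 0.715 with siFOXN3-2 (SD, n = 3), a log2 fold change of 2.79 and 2.69 (limma adjusted p = 1.3e-09 and 2.8e-09). BHLHE40, a transcriptional repressor, rose from 12.6 ± 1.20 to 102 ± 4.18 and 77.0 ± 3.94 FPKM. Between the siRNAs, 9 of the 33 were lower and 6 higher with siFOXN3-2, beside 10.7% and 25.4% of all tested genes. BHLHE40 was lower, with a difference of -0.40 on the log2 scale (limma adjusted p = 0.0024). CITED2, an inhibitor of HIF coactivator binding, was higher by 0.77 (limma adjusted p = 5.3e-05), with 24.7 ± 1.58, 79.7 ± 5.75 and 136 ± 2.67 FPKM in the 3 groups. Of the 33 genes, 2 went the other way with both siRNAs. ZNF395, a zinc finger factor, fell from 8.12 ± 0.274 to 4.92 ± 0.520 and 4.74 ± 0.136 FPKM. BHLHE41, the paralog of BHLHE40, fell from 9.11 ± 0.271 to 7.79 ± 0.583 and 6.68 ± 0.0686 FPKM, and with siFOXN3-1 it did not pass after median-ratio scaling (log2 fold change -0.02) or quantile normalization. EGLN3, CA12, EPO, EDN1 and RORA stayed below the filter, as CA9 and NDRG1 did. Of these, EPO had 0.747 ± 0.120 FPKM in siControl and less in the siRNA groups, at 0.270 ± 0.133 and 0.314 ± 0.192 FPKM. RORA had more, with 0.489 ± 0.0539, 1.10 ± 0.108 and 0.905 ± 0.101 FPKM. For both genes neither siRNA group overlapped siControl.

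**Figure D4:**
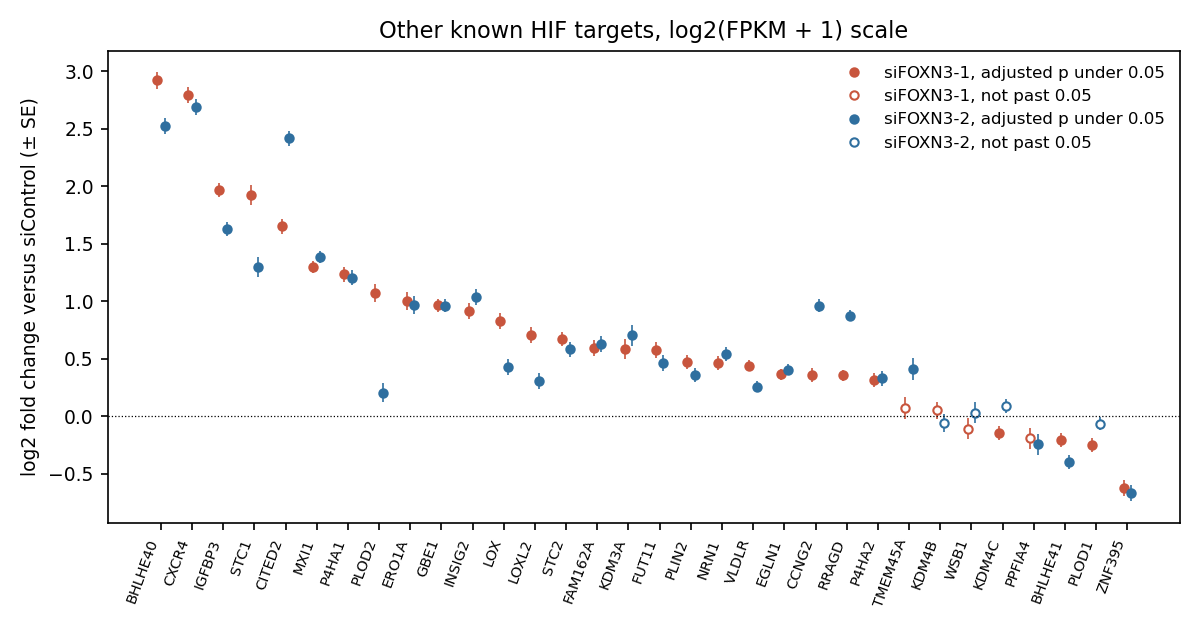
Log2 fold change against siControl, with its SE, of 32 of the other HIF targets above the expression filter, ordered by the siFOXN3-1 value. Filled points passed an adjusted p of 0.05 and open points did not, with CXCR4 and BHLHE40 among the highest and ZNF395 and BHLHE41 below 0 with both siRNAs.

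Of 22 tested glycolytic HIF targets, 17 rose and 1 fell with siFOXN3-1, and 14 rose and 3 fell with siFOXN3-2, with median log2 fold changes of 0.48 and 0.35, beside 19.3% and 24.1% of all tested genes that rose and 45.3% and 39.2% that fell. Over 18 alternatives 14 to 20 rose with siFOXN3-1 and 13 to 16 with siFOXN3-2. The glucose transporter SLC2A3 rose from 74.3 ± 5.53 to 445 ± 18.5 and 454 ± 6.45 FPKM, and the aldolase ALDOA from 20.8 ± 1.05 to 65.4 ± 2.18 and 51.1 ± 3.26 FPKM. Hexokinase HK2 rose from 16.6 ± 1.65 to 52.5 ± 1.20 and 49.3 ± 2.42 FPKM (SD, n = 3), while phosphofructokinase PFKL fell from 30.2 ± 1.06 to 21.6 ± 1.21 and 21.0 ± 0.528 FPKM.

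The transcripts of HIF itself and of its oxygen sensors changed in both directions. HIF1A, the main alpha subunit, had 28.1 ± 0.765 FPKM in siControl and 26.8 ± 1.28 with siFOXN3-1, a log2 difference of -0.06 (95% interval -0.20 to 0.07, limma adjusted p = 0.376), which turned to 0.14 with median-ratio scaling and did not pass there either. It was higher with siFOXN3-2, at 33.2 ± 2.12 FPKM (0.23, limma adjusted p = 0.0065), but did not pass with its replicate 1 alone. EPAS1, the other alpha subunit gene, rose from 3.15 ± 0.223 to 4.80 ± 0.241 and 4.39 ± 0.444 FPKM. ARNT had 7.88, 8.80 and 9.61 FPKM in the group means and passed with siFOXN3-2 (0.25, limma adjusted p = 0.0217), a call lost in 5 of 18 alternatives, among them leaving out siControl replicate 1 or 3 or siFOXN3-2 replicate 1 or 3. With siFOXN3-1 it passed only under the 2 rescalings. HIF3A and ARNT2 were below the filter.

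Among the enzymes that restrain HIF, HIF1AN, the asparagine hydroxylase, fell from 7.72 ± 0.513 to 4.90 ± 0.561 and 4.49 ± 0.431 FPKM (SD, n = 3; limma adjusted p = 2.4e-04 and 8.6e-05). VHL fell from 18.3 ± 0.430 to 14.2 ± 0.266 and 15.5 ± 0.638 FPKM, and with median-ratio scaling its fall with siFOXN3-2 did not pass (-0.12). The prolyl hydroxylase EGLN1, itself a HIF target, rose from 9.97 ± 0.331 to 13.1 ± 0.2996 and 13.5 ± 0.189 FPKM, whereas EGLN2 had 4.30, 3.43 and 3.16 FPKM and lost its call with siFOXN3-1 in 10 of 18 alternatives, both rescalings included, and with siFOXN3-2 under quantile normalization and with its replicate 1 alone. CREBBP, a HIF coactivator, fell from 3.66 ± 0.323 to 2.33 ± 0.279 and 2.51 ± 0.550 FPKM, calls lost under quantile normalization and, for siFOXN3-2, with its replicate 1 alone. In all, 3 of 13 tested subunit and sensor genes rose and 5 fell with siFOXN3-1, and 4 rose and 5 fell with siFOXN3-2, where 19.3% and 24.1% of all tested genes rose and 45.3% and 39.2% fell. With siFOXN3-1 the count was 4 up and 3 down under either rescaling, and with siFOXN3-2 it was 3 up and 2 down with its replicate 1 alone. These values are transcripts, and HIF protein was not measured here.

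The partners of the secreted factors were mostly low. CALCRL, the adrenomedullin receptor, the accessory protein gene RAMP1 and the decoy receptor ACKR3 were below the filter. The accessory protein genes RAMP2 and RAMP3 were also listed but had no values here, so the accessory proteins of CALCRL were only partly covered. The VEGF receptors FLT1, KDR and FLT4 were below the filter too. Of their coreceptors, NRP1 was below the filter as well, with 1.54 ± 0.101 FPKM in siControl and 0.769 ± 0.0967 and 0.590 ± 0.0434 FPKM in the siRNA groups, without overlap. FLT4 likewise had 1.27 ± 0.0474, 0.631 ± 0.180 and 0.692 ± 0.0918 FPKM. NRP2, which reached the filter through the siRNA groups, rose from 0.829 ± 0.0750 to 1.76 ± 0.150 and 1.16 ± 0.0895 FPKM, and its call with siFOXN3-2 was lost in 8 of 18 alternatives, its replicate 1 alone included. VEGFB, a paralog of VEGFA, fell from 27.1 ± 0.621 to 20.3 ± 3.24 and 19.6 ± 1.42 FPKM, so that VEGFA and VEGFB went in opposite directions. With siFOXN3-1 that fall did not pass under median-ratio scaling (-0.21). Another paralog, PGF, was higher with siFOXN3-1 (log2 difference 0.29, limma adjusted p = 0.0113) and did not pass with siFOXN3-2 (0.10) in the main fit. VEGFC passed with neither siRNA in the main fit (0.16 and 0.24), but was called higher with both under either rescaling. VEGFD was below the filter. PAM, the enzyme that amidates adrenomedullin, had 23.7, 26.3 and 25.8 FPKM in the group means. ADM2, a paralog of ADM below the filter, had 1.11 ± 0.130 FPKM in siControl and 0.497 ± 0.0616 and 0.485 ± 0.0379 FPKM in the siRNA groups, without overlap. ADM5 had 1.61, 1.21 and 1.06 FPKM in the group means and passed with neither siRNA in the main fit. None of 7 other angiopoietin-like genes nor the lipase gene LPL exceeded 0.663 FPKM in any sample, against 257 FPKM or more for ANGPTL4 in siRNA samples.

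Around the lipid droplet protein HILPDA, 3 of 6 tested genes of droplets and lipolysis rose and 1 fell with siFOXN3-1, and 2 rose with siFOXN3-2, where 19.3% and 24.1% of all tested genes rose. The fall with siFOXN3-1 did not pass under either rescaling. G0S2, which like HILPDA inhibits the PNPLA2 lipase, rose from 160 ± 11.2 to 495 ± 81.2 and 247 ± 30.8 FPKM (SD, n = 3). MGLL, the monoglyceride lipase gene, rose from 3.83 ± 0.266 to 7.40 ± 0.409 and 5.36 ± 0.191 FPKM. PNPLA2 itself had 31.7 ± 1.16, 32.3 ± 2.67 and 32.8 ± 1.28 FPKM, with log2 differences of 0.02 (95% interval -0.13 to 0.17) and 0.04 (-0.10 to 0.19), and passed with neither siRNA. Under median-ratio scaling it did pass with siFOXN3-1 (0.22).

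Of 12 tested genes of mitophagy and the wider BNIP group, 4 rose and 3 fell with siFOXN3-1, and 5 rose and none fell with siFOXN3-2, where 19.3% and 24.1% of all tested genes rose and 45.3% and 39.2% fell. The 3 falls were those of FKBP8, PHB2 and BCL2L13, and none passed under median-ratio scaling. Under quantile normalization BCL2L13 did not pass either, but FKBP8 (-0.45) and PHB2 (-0.47) did. With that normalization these genes were also called lower with siFOXN3-2, at -0.38 for FKBP8 and -0.28 for PHB2. GABARAPL1, an autophagosome protein that mitophagy receptors bind, rose from 27.2 ± 0.865 to 45.4 ± 0.902 and 49.6 ± 2.35 FPKM. MAP1LC3B rose from 21.9 ± 0.737 to 32.8 ± 1.59 and 27.7 ± 1.41 FPKM, and BNIP1 from 5.16 ± 0.0800 to 7.93 ± 0.734 and 9.05 ± 0.337 FPKM (SD, n = 3).

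For DDIT4, 1 of 10 tested genes of its route to mTOR rose and 6 fell with siFOXN3-1, and 2 rose and 5 fell with siFOXN3-2, where 45.3% and 39.2% of all tested genes fell. RHEB, the GTPase that activates mTOR, rose from 24.8 ± 0.694 to 43.0 ± 1.07 and 45.1 ± 4.94 FPKM. TSC2, through which DDIT4 is known to act, fell from 4.21 ± 0.363 to 2.71 ± 0.198 and 2.96 ± 0.473 FPKM, and with siFOXN3-2 replicate 1 alone that call was lost. RPTOR and MLST8, subunits of the mTOR complex, fell from 7.02 ± 0.809 to 3.91 ± 0.104 and 4.09 ± 0.615 FPKM and from 10.5 ± 0.583 to 6.34 ± 0.162 and 7.12 ± 0.463 FPKM.

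Among carbonic anhydrases, CA9 was not the main transcript. CA2, a cytosolic enzyme, rose from 9.99 ± 0.287 to 14.3 ± 0.641 and 16.5 ± 0.777 FPKM, and CA11, which lacks enzyme activity, fell from 27.6 ± 1.16 to 12.8 ± 1.31 and 13.3 ± 0.841 FPKM (SD, n = 3). The bicarbonate transporter SLC4A7 rose from 17.2 ± 0.859 to 41.3 ± 2.94 and 29.7 ± 3.21 FPKM. In this group of 16 listed genes, 6 were tested, of which 2 rose and 2 fell with siFOXN3-1 and 2 rose and 3 fell with siFOXN3-2, where 19.3% and 24.1% of all tested genes rose and 45.3% and 39.2% fell. CA7, a cytosolic enzyme below the filter, had 1.498 ± 0.276 FPKM in siControl and 0.720 ± 0.145 and 0.489 ± 0.162 FPKM in the siRNA groups, without overlap. Of 3 listed paralogs of NDRG1, 2 were tested, and both fell with both siRNAs, as did 33.4% of all tested genes. NDRG4 was below the filter, at no more than 1.02 FPKM in any sample. NDRG3 fell from 23.7 ± 0.445 to 18.3 ± 1.01 and 16.2 ± 1.09 FPKM. NDRG2 fell from 2.23 ± 0.0633 to 1.39 ± 0.0956 and 0.798 ± 0.213 FPKM, although the NDRG2 call with siFOXN3-1 was lost under quantile normalization. NDRG3 thus stood far above NDRG1 in every group.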

How the data were processed

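RNA-seq was made from polyadenylated RNA with an NEBNext Ultra kit, per the labels' protocols. FPKM were made and deposited by the authors, and the submitters' processing notes list StringTie 1.3.3b, fastp 0.14.0, HISAT2 2.1.0 and the build GRCh38. Which annotation release was used is not given in the sources used here. Columns were matched to sample titles.

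Multiplying FPKM by GENCODE 29 exon length gave whole fragments (within 0.05) for 98.2 to 98.3% of values worth 1 to 50 fragments. The 12707 genes whose FPKM averaged 1 or more over the 9 samples were tested as log2(FPKM + 1), with the 3 groups in 1 fit, using limma 3.58.1 in R 4.3.3 with a mean-variance trend. Tests were two-sided, with Benjamini-Hochberg adjustment over all tested genes and a threshold of 0.05. The fit was tested on simulated data. The members and lists were chosen with earlier results of these data known. Named genes were all members, HIF subunits and sensors, and up to 3 higher and 3 lower genes per list with the smallest adjusted p. Partners and paralogs were also named. Some genes that this rule names are not reported here, although list counts include them. Genes chosen after their values were seen were CITED2, EPO, RORA, FKBP8, PHB2 and BCL2L13, and UFSP2, ARHGEF39 and AC010655.2, which overlap members. Alternatives are given in the closing section. Replicate numbers did not pair the samples.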

Additional observations from a re-analysis of the deposited data

Results flagged for a closer look

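The siRNAs differed from each other in 2 of the 8 tested genes, by a test of the difference itself. Since the genes were chosen from FPKM values of these same samples, the p-values may not be independent of that choice. ANGPTL4 was lower with siFOXN3-2 than with siFOXN3-1 by -0.61 on the log2 scale (limma adjusted p = 2.1e-04), in 3 of 3 samples. DDIT4 was lower by -0.60 (limma adjusted p = 2.0e-04), in 3 of 3 samples. Across all 18 alternatives the differences ranged from -0.70 to -0.54 for ANGPTL4 and from -0.70 to -0.52 for DDIT4, and all passed the threshold. FOXN3 was not higher with siFOXN3-2 than with siFOXN3-1, at 0.958 against 1.22 FPKM in the means.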

How the results depend on the processing

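In 18 alternatives (pseudocount of 0.1 FPKM, 2 other filters, 2 scalings, the block, pairwise fits, voom, 9 samples left out in turn, siFOXN3-2 replicate 1 alone), every log2 fold change of the 8 tested genes against siControl kept its sign. Between the siRNAs, ADM turned to -0.0348 with median-ratio scaling, and BNIP3 to 0.0144 with quantile normalization and to 0.0052 and 0.00101 without siFOXN3-2 replicate 1 or 3 (range over samples left out, -0.0561 to 0.0052). None of these passed the threshold. The number of genes called fell from 8220 to 4708 with siFOXN3-1 and from 8049 to 4716 with siFOXN3-2 when a mean of 5 FPKM was required, since fewer genes were tested. Between the siRNAs it fell from 4590 to 2706 with siFOXN3-2 replicate 1 alone, where fewer samples were fitted and the lone sample is assumed to vary like the other groups. Of called genes, 29.9% were higher with siFOXN3-1 and 38.1% with siFOXN3-2, and 50.3% and 49.8% after median-ratio scaling. Between the siRNAs that share went from 70.3% to 49.5%. With the replicate block 7668, 7422 and 3465 genes were called. Same-numbered samples did not deviate together (r from -0.280 to 0.0529), so the block was not used, and between the siRNAs it changed no call of the 8 tested genes. CA9 (14 to 27 fragments) and NDRG1 (11 to 79) are limited by depth.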
